A study of Mus musculus with 2 samples.

Results

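Immediate early genes were described in single cells of the mouse aortic arch. They are 10 genes, Fos, Fosb, Jun, Junb, Jund, Egr1, Egr3, Atf3, Ier2 and Dusp1, taken by their symbols from the 31053 genes counted, and all 10 were found. The rule uses the symbols alone. The study compared a normal chow diet (ND) with a high-fat, high-cholesterol diet (HFD) in Apoe-/- mice, which lack apolipoprotein E in both groups and therefore carry raised plasma cholesterol. All mice were male C57BL/6 animals of 16 weeks of age that had received 12 weeks of their diet. Each group is 1 library of 10x Genomics single-cell RNA-seq, made from the pooled cell suspensions of 2 aortas, and no replicate exists for either diet. The arch was cut up and digested with enzymes at 37 °C for 40 minutes before the cells were captured.

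Immediate early genes are transcribed within minutes of a stimulus, from factors already present in the cell and without new protein synthesis. Growth factors, shear stress, cytokines, cell stress and the handling of tissue can all switch them on, mainly through MAP kinases and the factors SRF and CREB, and their mRNAs are short-lived. FOS and JUN family proteins pair into AP-1, which binds DNA at target genes. EGR proteins are zinc finger factors, ATF3 is a stress-induced repressor or activator of the ATF/CREB family, and DUSP1 is a phosphatase that switches MAP kinases off again. In vessels these genes are known as early responders of endothelial cells to altered flow and of macrophages to inflammatory signals.

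The genes lie on 8 chromosomes in mm10 (GRCm38, positions from GENCODE M21). Fos (ENSMUSG00000021250) is at chr12:85473890-85477273 on the plus strand, Fosb at chr7:19302696-19310051 on the minus strand, Jun at chr4:95049034-95052222 on the minus strand and Dusp1 at chr17:26505590-26562128 on the minus strand. Junb, Jund and Ier2 all lie on chromosome 8. Genes on the opposite strand overlap Jun (Junos), Junb (Prdx2), Jund (Gm11175) and Dusp1 (Ergic1 and Gm8225) and were counted under names of their own. The sources used here do not say whether counting used strand, so these genes are less certain than the others. To show where TGACG lies upstream of members from different families, 250 bases before the start of 4 members that hold it follow. They were read from RefSeq on GRCm38.p6, 5′ to 3′ on the gene's strand. Capitals mark TGACG, the 5-base core of the cyclic AMP response element that CREB and ATF proteins bind, read on either strand, or the whole element TGACGTCA.
Fos, chr12:85473640-85473889, plus strand: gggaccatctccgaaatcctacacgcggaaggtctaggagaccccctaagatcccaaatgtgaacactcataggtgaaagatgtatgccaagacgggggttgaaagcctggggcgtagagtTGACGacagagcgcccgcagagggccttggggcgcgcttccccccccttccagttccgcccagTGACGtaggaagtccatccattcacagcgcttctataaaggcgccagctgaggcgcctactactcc
Fosb, chr7:19310046-19310295, minus strand: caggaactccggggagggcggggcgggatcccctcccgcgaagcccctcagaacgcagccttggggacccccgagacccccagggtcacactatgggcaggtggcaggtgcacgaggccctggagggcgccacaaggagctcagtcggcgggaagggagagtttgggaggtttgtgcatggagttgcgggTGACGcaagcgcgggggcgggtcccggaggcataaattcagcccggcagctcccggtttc
Junb, chr8:84978749-84978998, minus strand: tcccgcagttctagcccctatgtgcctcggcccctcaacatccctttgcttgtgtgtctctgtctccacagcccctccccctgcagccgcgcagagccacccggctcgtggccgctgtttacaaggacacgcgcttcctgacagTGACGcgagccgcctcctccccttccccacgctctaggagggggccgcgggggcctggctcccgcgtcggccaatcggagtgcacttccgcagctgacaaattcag
Dusp1, chr17:26508473-26508722, minus strand: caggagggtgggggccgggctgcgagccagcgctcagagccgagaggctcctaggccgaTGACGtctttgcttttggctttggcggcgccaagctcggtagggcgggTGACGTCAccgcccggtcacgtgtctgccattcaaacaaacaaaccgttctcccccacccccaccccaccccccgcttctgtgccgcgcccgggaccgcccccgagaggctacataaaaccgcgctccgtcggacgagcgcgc
The same window of 7 of the 10 genes was read here, and TGACG was searched in it on both strands. Fos had matches beginning at -129 and -66, Fosb at -60, Junb at -106 and Atf3 at -7, counted from the first base of the transcript. Dusp1 held 3 matches, at -191, -143 and -140, the last 2 of them overlapping on opposite strands in 1 whole TGACGTCA. No TGACG was found in the windows of Jun and Jund, and the RefSeq start of Jund lies upstream of its GENCODE gene. The windows of Dusp1 and Atf3 lie inside their GENCODE genes, since the RefSeq starts used lie downstream of the GENCODE starts. They are therefore not the bases before the GENCODE gene. Over the 32851 promoters in the same table, 17.8% held TGACG and 1.55% held TGACGTCA. The AP-1 site was in 6.75%, the CArG box in 1.47% and TATAAA in 12.4% of them. Among the 7 windows none held the AP-1 site or the CArG box, and only that of Fos held TATAAA, at -33. These letters are a description of the sequence and no evidence of binding.

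With the filter of the study, 5416 ND cells and 2739 HFD cells were kept, holding 27137322 and 17191279 UMIs (unique molecular identifiers, each marking 1 captured RNA molecule). Median depth was 3732.5 UMIs in ND and 5336 in HFD cells, with 16.8% and 21.9% mitochondrial UMIs, and 1 barcode occurred among the kept cells of both libraries. Cells were put into types by gates, which required at least 2 different markers, at least 3 marker UMIs and at least 80% of all marker UMIs from 1 list. The gates took 80.6% of ND and 76.6% of HFD cells. There were 2296 ND and 1140 HFD endothelial cells, 1024 and 436 fibroblasts, and 331 and 449 macrophages. Endothelial cells were further split by Vwf, Vcam1 and Cytl1 (aortic type, 199 and 93 cells) against Gpihbp1, Cd36 and Rgcc (capillary type, 2075 and 1041 cells). Most endothelial cells from tissue labelled aorta therefore carried capillary genes, and only 46 ND and 16 HFD cells passed the gate for mural cells, the type that builds the aortic media. Markers of lung club cells, summed, reached 15273 CPM (UMIs per 1000000 UMIs) in the ND and 0.582 CPM in the HFD library, and haemoglobin genes 5410.4 and 37120.4 CPM in endothelial cells. By gate, the club cell markers were at 481 and 0.284 CPM in ND and HFD endothelial cells, 1996 and 0.964 in fibroblasts and 2695 and 1.52 in macrophages.

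Levels below are UMIs summed over the cells of a gate, in CPM of that gate, followed by the exact 95% Poisson interval in parentheses. Ratios carry an exact conditional binomial interval. These intervals cover counting error only. They say nothing of the spread between mice, which 1 library per diet cannot show, and no difference was tested. In sums over cells, fewer expressing cells and less RNA per cell cannot be told apart, which is why shares of cells are given further below.

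Every one of the 10 genes was counted in endothelial cells, fibroblasts and macrophages of both libraries. Added together, they held 1.23% of all ND and 0.989% of all HFD endothelial UMIs, 1.31% and 0.77% of macrophage UMIs, and 0.88% and 0.653% of fibroblast UMIs. The order of cell types differed from gene to gene. Among gates of at least 50 cells, Fos, Fosb, Junb and Dusp1 were highest in myeloid cells of the ND library, while Jun, Jund, Egr1, Egr3 and Ier2 were highest in capillary type endothelial cells of both libraries. In HFD cells, where neutrophils were too few, Dusp1 was also highest in capillary type cells.

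**Figure D1:**
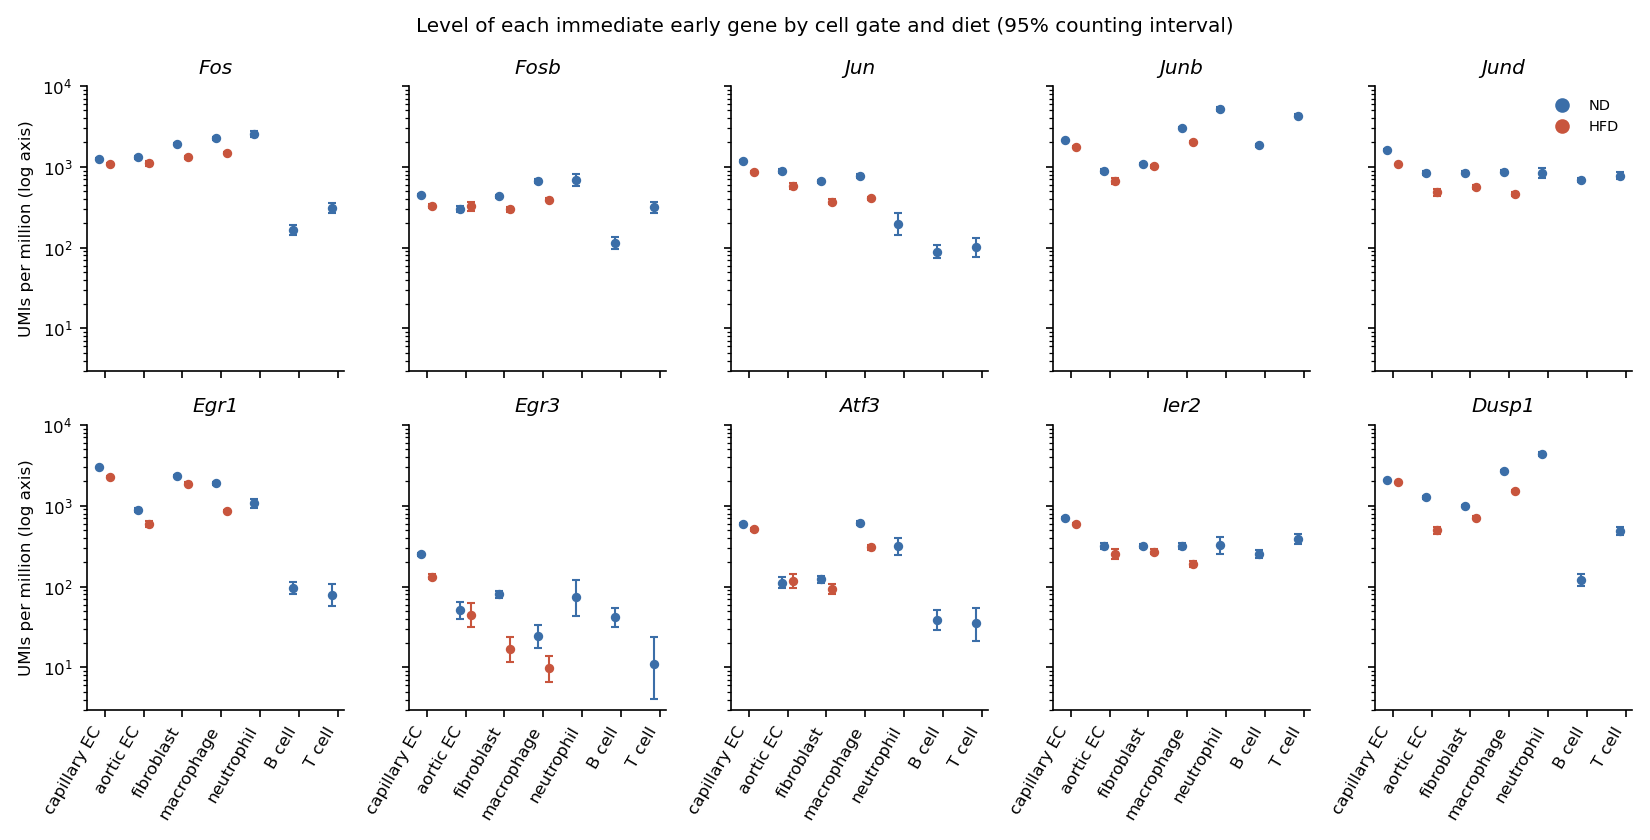
Level of each of the 10 genes (CPM of the gate, log axis) in 7 gates, with blue points for the ND and red points for the HFD library and bars for the 95% counting interval. Neutrophils, B cells and T cells are drawn for ND only, since under 50 HFD cells passed these gates. Egr1 in ND spans from 79.3 in T cells to 2997 in capillary type endothelial cells, and every HFD point except those of Fosb and Atf3 in aortic type cells lies below its ND point, though Dusp1 in capillary type cells and Junb in fibroblasts change sides when scaled by the median of ratios.

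Among the FOS genes, Fos was at 1268 (1247 to 1288) CPM in ND endothelial cells, 1922 (1880 to 1965) in fibroblasts, 2243 (2171 to 2316) in macrophages and 2570.4 (2366 to 2788) in the 86 neutrophils. In HFD cells it was at 1089 (1064 to 1113), 1308 (1259 to 1358) and 1495 (1453 to 1537) CPM in endothelial cells, fibroblasts and macrophages. The order of these 3 types was therefore the same on both diets, and no 2 neighbours had overlapping intervals. Fosb, its close relative, was at 669.9 (631 to 711) CPM in ND macrophages and 689 (585 to 806) in neutrophils, which overlapped. Fibroblasts, at 429.8 (410.03 to 450.2) CPM, overlapped capillary type endothelial cells, at 448 (435 to 461) CPM.

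The JUN genes did not share an order. Jun was at 1183 (1162 to 1205) CPM in ND capillary type and 886 (839 to 935) in aortic type endothelial cells, 765 (723 to 808) in macrophages and 658 (634 to 683) in fibroblasts, all apart. Junb was highest of these 4 gates in macrophages, with 3027 (2944 to 3113) CPM in ND macrophages, 2129 (2100.3 to 2158) in capillary type endothelial cells, 1073 (1042 to 1105) in fibroblasts and 895 (848 to 945) in aortic type endothelial cells. Jund, a family member known for steadier expression than the other 2, was highest in capillary type cells at 1623 (1598 to 1648) CPM. Its other 6 ND gates lay between 686 and 874 CPM, each overlapping the next in order.

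Egr1, an early zinc finger factor on chromosome 18 at positions 34859823 to 34864984, was at 2997 (2963 to 3031) CPM in ND capillary type cells, 2343 (2296 to 2389.7) in fibroblasts and 1889.97 (1824 to 1958) in macrophages. Egr3 had the widest ratio of the 10 genes between capillary type cells, fibroblasts and macrophages, at 251 (241 to 261) CPM in capillary type cells, 80.2 (71.8 to 89.3) in fibroblasts and 24.3 (17.4 to 33.1) in macrophages of the ND library. Atf3 reached a similar level in ND macrophages, 614 (577 to 653) CPM, and capillary type cells, 600.4 (585 to 616), with overlapping intervals, but only 123 (112 to 134) in fibroblasts and 111 (95.1 to 129.7) in aortic type cells. Ier2, a nuclear protein of the early response, was at 704 (688 to 721) CPM in ND capillary type cells and lay between 252 and 391 CPM in the other 6 gates. Dusp1 was at 4377 (4108 to 4658) CPM in ND neutrophils, 2723 (2644 to 2804) in macrophages, 2055 (2027 to 2083) in capillary type cells and 1003 (973 to 1034) in fibroblasts, all apart.

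Set against endothelial cells of the same library, a gene is called higher or lower below where its CPM was at least 1.5-fold apart and at least 20 UMIs were counted in both gates together. In ND fibroblasts, 7 of the 10 genes were lower, against 26.3% of all genes, and 1, Fos, was higher at a ratio of 1.52 (1.48 to 1.56), against 29.8% of all genes. The smallest ratio was that of Atf3, 0.231 (0.211 to 0.253). The same 7 genes were lower in HFD fibroblasts, with backgrounds of 27.1% lower and 31.1% higher, while Fos was at 1.2 (1.15 to 1.26). In ND macrophages 3 genes were higher, Fos, Fosb and Junb, and 3 lower, Jund, Egr3 and Ier2, where 20.2% of all genes were higher and 43.2% lower. In HFD macrophages none of the 10 was higher and 6 were lower (backgrounds 24.7% and 39.1%), with Fos at 1.37 (1.32 to 1.42) and Egr1 at 0.416 (0.399 to 0.433). The ND calls of higher genes depended on the mitochondrial limit. With at most 10% mitochondrial UMIs, none of the 10 was called higher in ND fibroblasts or macrophages. The share of all genes higher under that limit is not given here.

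Lymphocytes of the ND library gave a low reference in the same suspension. In 334 B cells Egr1 was at 96.2 (79.9 to 115) CPM, Fos at 166 (144 to 189.6) and Jun at 89.1 (73.5 to 107). In 199 T cells Egr1 was at 79.3 (57.4 to 107) CPM, Fos at 309.97 (265 to 361) and Jun at 101 (76.4 to 132). Compared with endothelial cells, 9 of the 10 genes were lower in B cells and 8 in T cells, against 50.3% and 46.7% of all genes. None was higher in B cells and 1 in T cells, against 18.3% and 21.5%. Junb, the gene higher in T cells, stood apart from the other members in lymphocytes, at 1836 (1762 to 1911) CPM in B cells and 4286 (4114 to 4464) in T cells, the latter 2.2 times its endothelial level. Neutrophils had Junb at 5247 (4953 to 5554) CPM and Jun at only 199 (145 to 266). In them 4 genes were higher than in endothelial cells (Fos, Fosb, Junb and Dusp1) and the other 6 lower, against 13% and 70.2% of all genes. These neutrophils were shallow, with a median of 2030.5 UMIs and 24.1% mitochondrial UMIs. Endothelial markers were at 1003 CPM in them, and 9.3% had top doublet scores, against 2.53% of ND endothelial cells. Their own 6 markers took 146287 CPM, which lowers the CPM of every other gene. Gates with under 50 cells are given as values only. The 46 ND and 16 HFD mural cells had Fos at 2677 and 1961 CPM and Egr1 at 2515 and 1824 CPM, and the 33 ND and 15 HFD monocytes had Fos at 1738 and 941 CPM.

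The 2 kinds of endothelial cell differed in most of these genes. Aortic type cells had lower levels of 7 of the 10 genes than capillary type cells in the ND library and of 8 in the HFD library, where 24.9% and 21.6% of all genes were lower. None of the 10 was higher, against 28.7% of all genes in ND and 33.9% in HFD cells. With a stricter gate of 3 markers and 95% of marker UMIs, 2 of the 10 were higher in the 35 HFD aortic type cells it left. The share of all genes higher under that gate is not given here. Egr1 was at 887 (840.1 to 936) against 2997 CPM in ND cells, a ratio of 0.296 (0.28 to 0.313), and at 593 (541 to 649) against 2267 CPM in HFD cells, a ratio of 0.262 (0.238 to 0.287). Atf3 had ratios of 0.186 (0.158 to 0.217) in ND and 0.23 (0.186 to 0.283) in HFD cells, and Junb of 0.421 (0.398 to 0.445) and 0.373 (0.341 to 0.407). Fos and Fosb were not called on either diet. Fosb was at 302 (275 to 331) CPM in ND aortic type and 448 (435 to 461) in ND capillary type cells, a ratio of 0.674 (0.611 to 0.743) just short of the limit, and at 323 (285 to 365) and 327 (313 to 342) CPM in HFD cells, with overlapping intervals. Fos was at 1309 (1251 to 1368) CPM in ND aortic type and 1263 (1241 to 1285) in ND capillary type cells, a ratio of 1.04 (0.987 to 1.09), and its HFD ratio was 1.01 (0.945 to 1.09), so that its intervals overlapped in both libraries. Jun was lower by less than the limit in ND cells, 0.749 (0.707 to 0.793), and just beyond it in HFD cells, 0.66 (0.598 to 0.726). Aortic type cells were deeper, with a median of 5988 UMIs against 3369 in ND, and had 11.2% against 18.1% mitochondrial UMIs. Of them, 7.54% in ND and 8.6% in HFD had top doublet scores, against 1.98% and 1.44% of capillary type cells. Fibroblast markers were at 262 and 498 CPM in ND and HFD aortic type cells, against 60.9 and 46.4 in capillary type cells. The part of fibroblast RNA in these ratios was not tested. With cells thinned to 1000 UMIs, 8 genes were lower in ND and 8 in HFD aortic type cells, and with at most 10% mitochondrial UMIs 6 and 8. The shares of all genes lower under these settings are not given here.

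Between the diets, all 10 genes had a lower CPM in HFD than in ND endothelial cells, fibroblasts and macrophages, of which Dusp1 in endothelial cells and Junb in fibroblasts turned with another scaling. The size differed between cell types. The members' median log2 ratio was -0.31 in endothelial cells, -0.51 in fibroblasts and -0.87 in macrophages, while the median over all genes was -0.20, -0.17 and -0.09. The median gene was thus also lower in HFD by this scaling, while haemoglobin and mitochondrial UMIs took larger shares of the HFD library. Scaled by the median of ratios between the libraries, which removes that shift, Dusp1 in endothelial cells (1.03) and Junb in fibroblasts (1.04) turned to ratios above 1, the other 9 genes in each stayed below 1, and in macrophages all 10 stayed below 1.

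**Figure D2:**
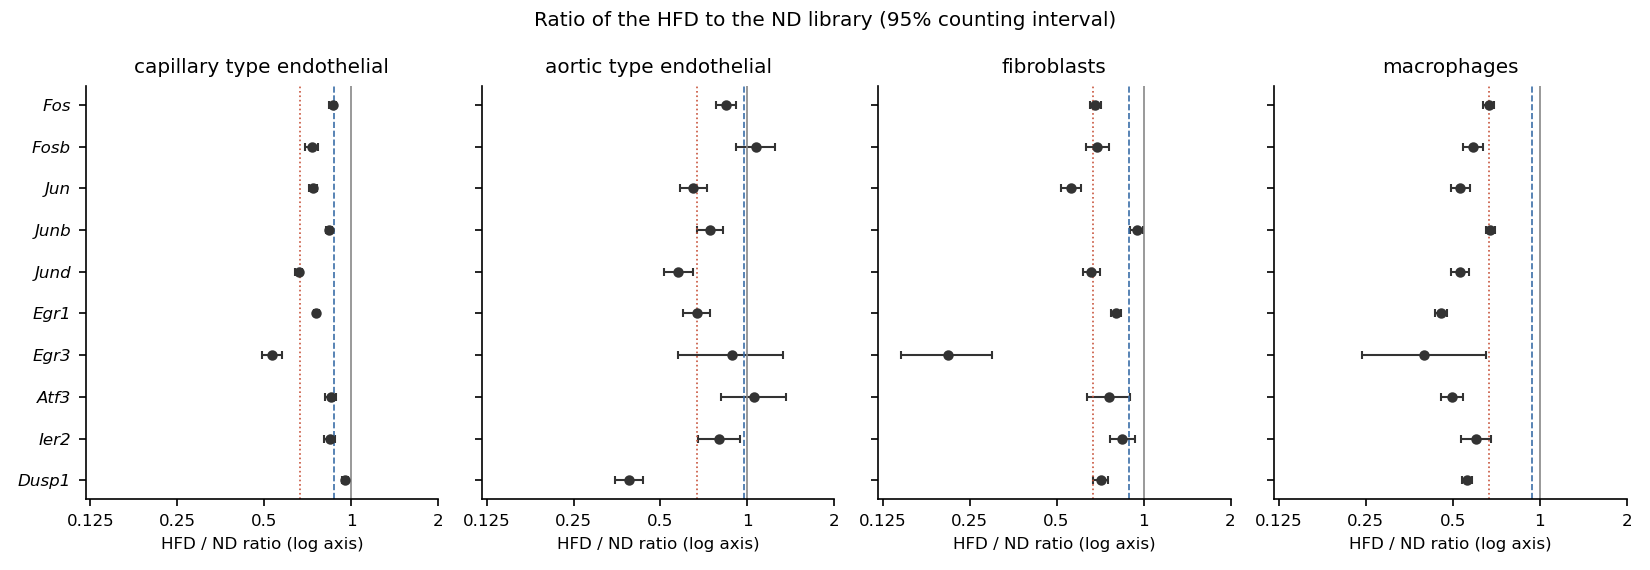
Ratio of the HFD to the ND level of each gene (log axis) in 4 gates, with bars for the 95% counting interval. The grey line marks a ratio of 1, the dashed blue line the median of all genes and the dotted red line 1.5-fold lower. In macrophages 9 of the 10 genes lie beyond the dotted line, in capillary type endothelial cells only Jund and Egr3.

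Over all kept cells, whatever their type, 1 of the 10 genes, Egr3, was called lower in HFD and none higher, against 22.1% and 6.04% of all genes. In endothelial cells, 2 were called lower, Jund and Egr3, against 21.2% of all genes, and none higher, against 5.31%. Jund was at 1508 (1485 to 1530.2) CPM in ND and 998 (975 to 1022) in HFD cells, a ratio of 0.662 (0.644 to 0.681). Egr3 was at 223 (214 to 231) and 123 (115 to 131) CPM, a ratio of 0.552 (0.51 to 0.596). The share of members called was thus near the background, and Jund passed the limit by little. Relative to the median of ratios Jund was at 0.743 and Egr3 at 0.619. Of the genes not called, Jun, Fosb and Egr1 had the lowest ratios, 0.734, 0.765 and 0.767. For Fos and Dusp1 the difference was smaller. Fos had 1268 (1247 to 1288) and 1089 (1064 to 1113) CPM, and Dusp1 had 1933 (1908 to 1958) and 1781 (1749 to 1812) CPM, ratios of 0.859 and 0.921. Capillary type cells, most of the gate, gave the same 2 calls of lower and none of higher (backgrounds 22.6% and 6.05%).

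In fibroblasts, 3 of the 10 genes were called lower in HFD, Jun, Jund and Egr3, against 18.1% of all genes, and none higher, against 6.05%. Jun was at 658 (634 to 683) CPM in ND and 369.8 (344 to 397) in HFD fibroblasts, a ratio of 0.562 (0.518 to 0.609). Egr3 was at 80.2 (71.8 to 89.3) and 16.9 (11.8 to 23.5) CPM, a ratio of 0.21 (0.144 to 0.299), from 35 HFD UMIs. With at most 10% mitochondrial UMIs, which left 10 HFD fibroblasts, the log2 of its ratio turned to 0.13. Fos, at 1922 (1880 to 1965) and 1308 (1259 to 1358) CPM, had a ratio just short of the limit, 0.681 (0.651 to 0.711). Junb was closest between the libraries, at 1073 (1042 to 1105) and 1017 (974 to 1061) CPM.

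Macrophages showed the widest gap between the libraries by the median of the 10 genes. Of the 10 genes, 9 were called lower in HFD, against 18.9% of all genes, none was higher, against 12.2%, and the other gene, Junb, was at a ratio of 0.675 (0.651 to 0.700). Egr1 was at 1889.97 (1824 to 1958) CPM in ND and 860.02 (829 to 892) in HFD macrophages, a ratio of 0.455 (0.432 to 0.479). Atf3 was at 614 (577 to 653) and 306 (287 to 325) CPM, and Dusp1 at 2723 (2644 to 2804) and 1529 (1487 to 1572) CPM. No interval of a member overlapped between the libraries in macrophages. The share of all genes without overlap is not given here, and these intervals narrow as UMIs rise. Fos was at 2243 (2171 to 2316) and 1495 (1453 to 1537) CPM, and its ratio of 0.667 (0.639 to 0.696) sits on the limit itself. Haemoglobin genes were at 3373 and 5787 CPM in these cells, and markers of lung club cells at 2695 and 1.52 CPM. With mitochondrial, haemoglobin and ribosomal protein genes left out of the total, all 10 ratios stayed below 1. The part of RNA from other cells in the gap was not tested. When each cell was thinned to 1000 UMIs, so that deep cells no longer weigh more, 5 of the 10 genes were called lower. The share of all genes called lower after thinning is not given here.

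Macrophages of the 2 libraries were not made up alike. To describe this, macrophages were split after these values had been seen, by 3 genes of lipid-laden macrophages (Gpnmb, Trem2 and Spp1) and 3 genes of resident vessel macrophages (Lyve1, Folr2 and F13a1). Cells with at least 2 UMIs of 1 trio and more of it than of the other were placed with it. The Gpnmb, Trem2 and Spp1 cells made up 26 of 331 ND macrophages, 7.85% (5.2 to 11.3, exact Clopper-Pearson), and 179 of 449 HFD macrophages, 39.9% (35.3 to 44.6). The Lyve1, Folr2 and F13a1 cells numbered 241 and 230, and 64 and 40 cells fell in neither. Within the HFD library the Gpnmb, Trem2 and Spp1 cells had lower levels of 9 of the 10 genes than the Lyve1, Folr2 and F13a1 cells, against 22.2% of all genes, and higher levels of none, against 19.9%.

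Egr1 had the lowest ratio between these macrophages in the HFD library, and Jun, at 0.495 (0.391 to 0.621), in the ND library. In HFD cells Egr1 was at 266 CPM in Gpnmb, Trem2 and Spp1 cells and 1681 CPM in Lyve1, Folr2 and F13a1 cells, a ratio of 0.158 (0.143 to 0.175), and in ND cells at 1002 and 2016 CPM, a ratio of 0.497 (0.427 to 0.576). Ier2 and Dusp1 had HFD ratios of 0.296 (0.246 to 0.355) and 0.382 (0.359 to 0.406). In the ND library 6 of the 10 genes were lower in the Gpnmb, Trem2 and Spp1 cells (background 32.8% lower and 15.5% higher), while Fos, at a ratio of 0.900, and Junb, at 0.941 (0.858 to 1.03), were not. Both kinds of macrophage also differed by diet, and whether they did so to unlike extents was not tested. In Lyve1, Folr2 and F13a1 cells 3 genes were lower in HFD, Jund, Egr3 and Atf3, against 15.9% of all genes, none was higher, against 7.18%, and Fos was at 0.862 (0.817 to 0.911) and Egr1 at 0.834 (0.786 to 0.884). In Gpnmb, Trem2 and Spp1 cells all 9 genes with at least 20 UMIs were lower, against 18.2% lower and 24.5% higher of all genes, with Egr1 at 0.265 (0.224 to 0.315), though only 26 ND cells stand behind these ratios. The HFD cells of that kind were deep, with a median of 8843 UMIs against 5326 in the other HFD subset, and held 15.4% against 23.1% mitochondrial UMIs. The part of depth and mitochondrial share in the difference was not tested.

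**Figure D3:**
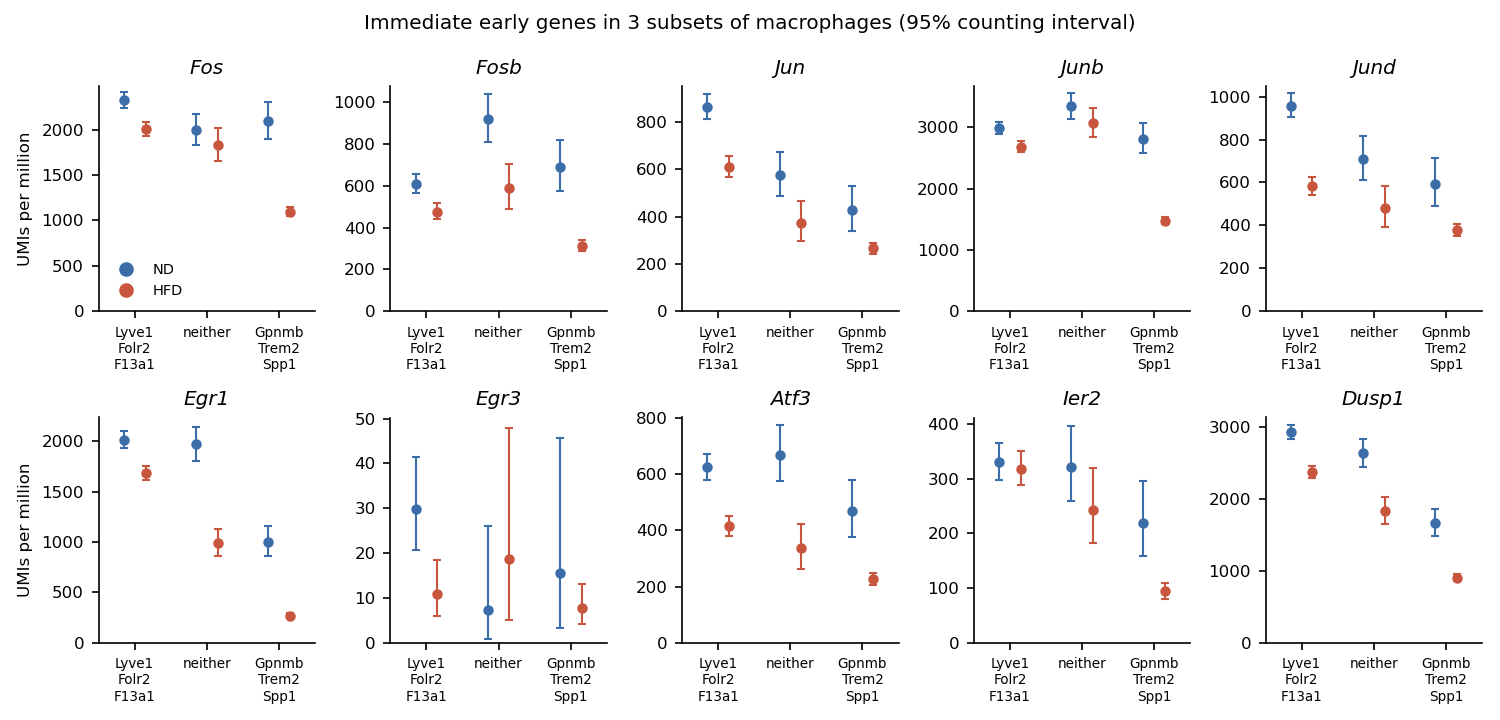
Level of each gene (CPM of the subset, linear axes that start at 0) in macrophages split by Lyve1, Folr2 and F13a1 against Gpnmb, Trem2 and Spp1, for ND in blue and HFD in red, with bars for the 95% counting interval. The HFD points of the Gpnmb, Trem2 and Spp1 cells are the lowest of the panel for 9 of the 10 genes, and Egr3 has too few UMIs for such an order.

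In aortic type endothelial cells, 3 of the 10 genes were called lower in HFD, Jun, Jund and Dusp1, against 14.9% of all genes, and none higher, against 10.6%. Dusp1 was at 1272 (1215 to 1331) CPM in ND and 494 (447 to 546) in HFD cells, a ratio of 0.389 (0.348 to 0.433), while in capillary type cells its ratio was 0.95 (0.929 to 0.972). Fosb and Atf3 had ratios above 1, 1.07 (0.915 to 1.25) and 1.05 (0.809 to 1.36), with intervals that include 1. These values depended on which cells were taken. A stricter gate of 3 markers and 95% of marker UMIs left 89 ND and 35 HFD cells. In them Fos was at 1168 and 1778 CPM, a ratio of 1.52, and 4 genes, Fos, Fosb, Egr3 and Atf3, were at least 1.5-fold higher in HFD. The share of all genes higher under the stricter gate is not given here. Egr3 rested on 28 ND and 21 HFD UMIs, with a ratio of 1.65 (0.889 to 3.01). The 110 ND and 58 HFD cells outside that gate had Fos at a ratio of 0.567. Dusp1 was lower in HFD in both sets, at 0.503 and 0.335, and Jund at 0.611 and 0.563.

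Sums can hide how many cells take part, so the number of the 10 genes with at least 1 UMI was counted in each cell after thinning to 1000 UMIs, which makes depths equal. In endothelial cells 70.7% (68.8 to 72.6) of ND and 59.3% (56.4 to 62.2) of HFD cells had 5 or more. Macrophages had 66.6% and 43.0%, and fibroblasts 42.4% and 26.8%. The share was lower in HFD in each of these gates, and in B cells of the ND library it was 3.59%. Cells with none of the 10 made up 0.676% of ND and 1.34% of HFD capillary type cells, but 5.58% (2.82 to 9.77) of ND and 20.4% (12.8 to 30.1) of HFD aortic type cells. Aortic type cells had a median of 4 of the genes in ND and 2 in HFD, and the highest number in an HFD cell was 8. Such numbers are not given here for the stricter aortic gate. The summed HFD to ND ratio of the 10 genes was 0.963 (0.9075 to 1.02) in that gate. In aortic type cells outside it, the summed ratio was 0.549 (0.523 to 0.577).

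**Figure D4:**
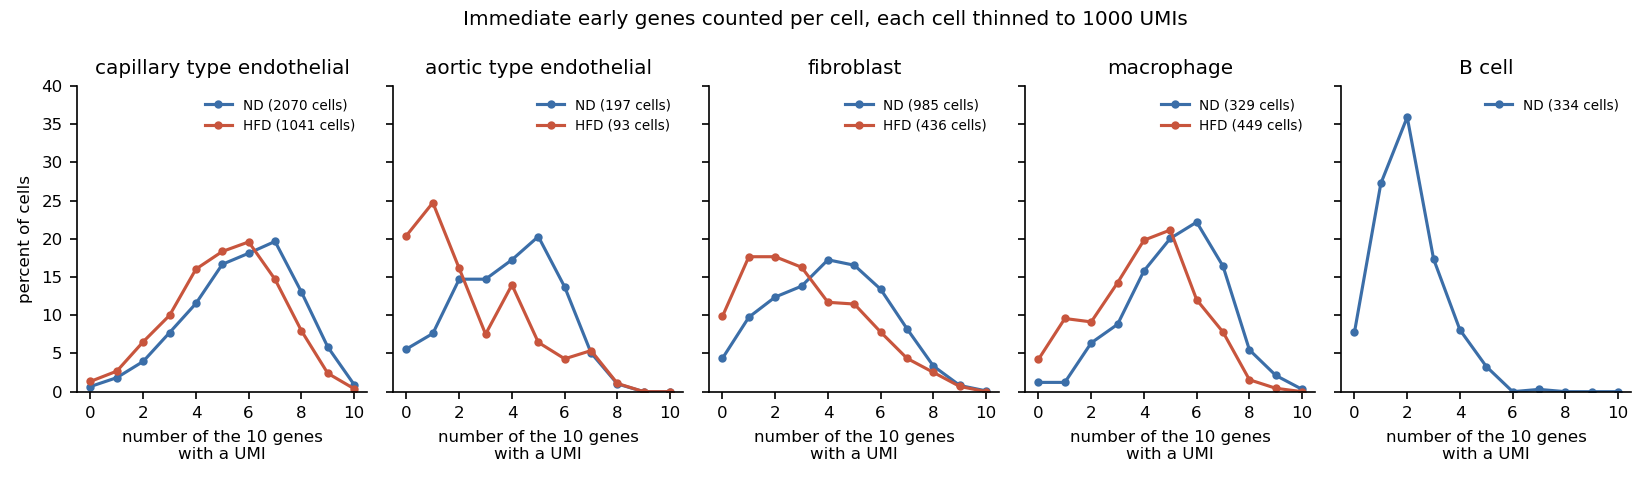
Share of cells (percent, y axis) by the number of the 10 genes with at least 1 UMI in a cell thinned to 1000 UMIs (x axis), in 5 gates, ND in blue and HFD in red. The HFD curves lie to the left of the ND curves, most so in aortic type endothelial cells, and ND B cells have a median of 2 genes. The stricter aortic gate is not drawn.

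Single genes gave the same picture per cell. Egr1 had a UMI in 76.2% of thinned ND and 73.5% of thinned HFD endothelial cells, and in 69.6% and 44.3% of macrophages. Before thinning, these shares were 90.5%, 91.1%, 87.9% and 68.2%. In thinned ND B cells, taken as a guide to RNA from other cells, Egr1 was in 5.39% and Fos in 14.4% of cells, where median depths before thinning were 3347 UMIs in B cells and 3576 in endothelial cells. Dusp1 in aortic type cells went from 70.1% of thinned ND to 25.8% of thinned HFD cells, a wider gap than in capillary type cells, 81.5% and 77.3%.

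Digestion of tissue at 37 °C is a known inducer of these genes, and both libraries were digested in the same way by the protocol in the labels. No undigested or cold-digested sample is among the data used here, so the part of dissociation in the levels was not tested. The mitochondrial share, a common measure of damaged cells, was taken in bins, and the 10 genes were summed in CPM of nuclear UMIs so that mitochondrial RNA itself does not enter. ND endothelial cells held 13300.5 at up to 10% mitochondrial UMIs and 17151 at 25 to 30%, and HFD endothelial cells 10549.7 and 12573. HFD cells were below ND cells within each bin up to 50%, with ratios between 0.733 and 0.893, and above them beyond 50%, at 1.16.

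Macrophages varied more with this measure. HFD macrophages held 4172 CPM of nuclear UMIs for the 10 genes at up to 10% mitochondrial UMIs, 11046 at 15 to 20% and 14305 at 25 to 30%. ND macrophages held 11193, 17064 and 18459. The HFD to ND ratio of the sum thus went from 0.373 in the lowest bin, with 35 ND and 26 HFD cells, to 0.775 at 25 to 30%, with 33 and 126 cells. In fibroblasts the ratio was between 0.666 and 0.99 over the bins, without an order. Low bins also hold the deepest cells, since HFD macrophages at up to 10% had a median of 18152 UMIs and those at 25 to 30% 4540.5. Within bins of depth chosen after these values were seen, the ratio of the sum in macrophages was 0.72 at up to 3000 UMIs, 0.729 at 3000 to 6000, 0.698 at 6000 to 12000 and 0.506 above, below 1 in each. In endothelial cells it was 0.656, 0.768, 0.82 and 0.896 in the same bins. In fibroblasts it was 0.757, 0.712 and 0.722 in the first 3 bins and went the other way above 12000 UMIs, at 2.02 from 7 ND and 6 HFD cells.

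**Figure D5:**
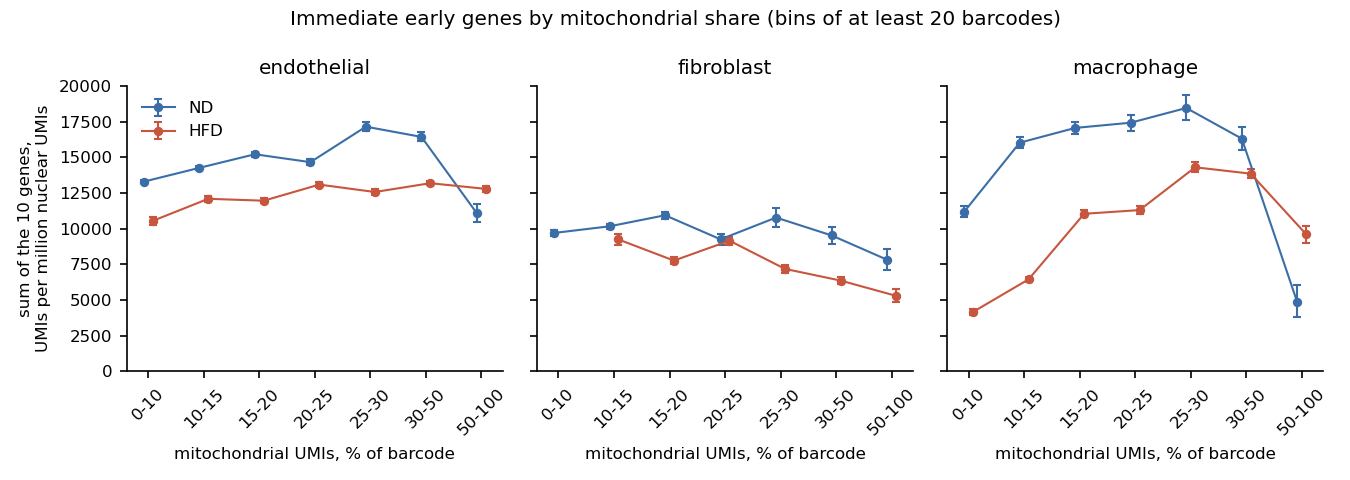
Sum of the 10 genes (CPM of nuclear UMIs, y axis) by the mitochondrial share of the barcode (percent, x axis) in endothelial cells, fibroblasts and macrophages, ND in blue and HFD in red, with bars for the 95% counting interval. Bins above 30% were removed by the filter and bins of under 20 barcodes are not drawn. HFD points lie below ND points up to 50%, by least in fibroblasts at 20 to 25%, and macrophages of the HFD library climb from the lowest bin to 25 to 30%.

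Across single cells the members were tied to each other loosely. Spearman's rho over the 45 pairs of genes in thinned cells had a median of 0.128 in ND endothelial cells, 0.148 in HFD endothelial cells, 0.118 and 0.198 in fibroblasts, and 0.0721 and 0.12 in macrophages. Counts at 1000 UMIs are sparse, which keeps such values low, and cells of 1 gate share their library. The highest pair was Junb with Egr1 in endothelial cells of both libraries, 0.443 over 2289 ND and 0.357 over 1140 HFD cells. In fibroblasts of both libraries it was Fos with Egr1, at 0.419 and 0.54. In macrophages it was Fos with Dusp1 in ND cells, 0.338, and Egr1 with Dusp1 in HFD cells, 0.415. Jun and Jund, members of 1 protein family, were looser, at 0.0875 in ND and 0.148 in HFD endothelial cells.

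Genes were unevenly spread over cells as well. In ND fibroblasts, the 10% of thinned cells with most Fos held 39.2% of its UMIs, and in HFD fibroblasts 51.2%. Its mean was 1.91 UMIs per thinned ND and 1.33 per thinned HFD fibroblast, and a lower mean can by itself raise such a share. The variance of Fos over its mean was 3.14 and 3.96 there, and 1.79 and 1.84 in endothelial cells, where 1 would be counting noise alone. Jund was more even than Fos, with 1.28 and 1.19 in endothelial cells. In macrophages, the top 10% of cells held 48.0% of the Egr1 UMIs on HFD against 35.9% on ND. The mean of Egr1 was also lower on HFD, at 1.08 against 1.95 UMIs per thinned cell. Its variance over its mean was 2.74 on HFD and 2.49 on ND.

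A list of 37 other early response genes, chosen with earlier results of these data known, was measured beside the 10. Between the diets in endothelial cells, 36 had enough UMIs, of which 6 were lower and 3 higher in HFD by the same limit, where 21.2% of all genes were lower and 5.31% higher. The lowest ratios were those of Srf, the serum response factor that drives many early genes, at 179.9 and 46.5 CPM, and of Ctgf and Cyr61, matricellular genes, at ratios of 0.333 and 0.535. Srf was at a ratio of 0.259 in endothelial cells, 0.391 in fibroblasts and 0.851 in macrophages. The highest were Fosl1, Maff and Dusp6, with Maff at 162 and 291 CPM. In macrophages 19 of 34 such genes were lower and 3 higher (Dusp5, Bhlhe40 and Sgk1, named here after their values were seen), against 18.9% and 12.2% of all genes, with Maff at a ratio of 0.556, below 1 there and above 1 in endothelial cells. Fibroblasts had 11 of 35 lower and none higher, against 18.1% and 6.05%. Aortic type endothelial cells had 12 of 35 lower and 1 higher, Klf10, against 14.9% and 10.6%.

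Heat shock and chaperone genes, which also answer to stress, were another list. In endothelial cells 8 of 12 were lower in HFD, against 21.2% of all genes, none was higher, against 5.31%, and the median log2 ratio was -0.73. Hsph1 was at 78.0 and 15.2 CPM, and Hspa8, the constitutive HSC70, at 2409.9 and 1307 CPM. By this median, heat shock genes were further apart between the libraries than the 10 immediate early genes in endothelial cells, while in macrophages the 10 genes were further apart, -0.87 against -0.49. In aortic type endothelial cells the heat shock median was -0.03, with 1 gene lower and 1 higher of 12 (Hsph1 and Hspb1), against 14.9% and 10.6% of all genes. Fibroblasts had 3 of the 12 lower, against 18.1%, macrophages 5, against 18.9%, and neither had one higher, against 6.05% and 12.2%.

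Finally, genes with a pattern most like Fos were looked for among 11296 genes over the 11 points of gate and library with at least 50 cells, by Pearson's r of log2(CPM + 10). These points share libraries and depth, and the values are a description. The 5 most alike were Ier3, an early response gene itself, with r of 0.964, Mfsd14b, Stam2, Nfe2l2 and Tcn2. Of the members, Dusp1, Fosb and Egr1 followed Fos over these points, with r of 0.855, 0.854 and 0.848, and Junb did not, with -0.0547. The summed level of the 10 genes was most like that of Jdp2, Gm20604, Ccnl1, Ppard and Isg15, led by Jdp2, whose protein binds JUN, with 0.952. Over single endothelial cells, Spearman's rho of Egr1 with Fos was 0.329 in ND and 0.333 in HFD cells.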

How the data were processed

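Whole-number UMI counts by gene and barcode, deposited for 2 libraries (ND and HFD, 1 of each), had been made by the authors with Cell Ranger (3.0.1 in the file header, mm10 in the submitters' notes) and not normalized. A barcode was kept when it held 200 or more genes and UMIs and its mitochondrial share was no higher than 30%, the limits of the methods. Total counts were 27137322 and 17191279 UMIs, so that intervals are narrow for large gates and wide for Egr3. Cells were gated by 11 marker lists, and UMIs were summed per gate and library as CPM. Scrublet marked 0 ND and 1 HFD cell as doublets by its own threshold, so the highest 6% of scores were left out as an alternative. With 1 library per diet no test was made. Calls require a fold of 1.5 and 20 UMIs over both groups. The steps were tested on simulated data. The other deposited counts, of both libraries joined, were not used. Named are the 10 genes in every gate with 50 cells in each library, the 3 largest and 3 smallest ratios of each further list, and the 5 genes most alike in pattern. Genes most like Fos over single cells are not reported here. Values of gates with 50 ND cells only were added. Members and lists were chosen with earlier results of these data known. Calculations used Python 3.11.15, numpy 2.4.6, scipy 1.17.1, pandas 2.3.3, scanpy 1.11.5 and matplotlib 3.10.9.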

Additional observations from a re-analysis of the deposited data

How the results depend on the processing

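Of 220 counts of members called, recomputed under 10 settings, 200 stayed within 1.5 times, and 48 of 1097 single ratios lay on the other side of 1. The 200 include all 22 counts under at least 20 UMIs in each group, a limit that leaves the ratios themselves unchanged. Single ratios also changed in size without crossing 1, which these numbers do not show. Jund between the diets in endothelial cells, for example, went from 0.662 to 0.743 with the median of ratios. Shares of all genes called under the 10 settings are not given here. In endothelial cells the 2 genes called lower in HFD became 1 without mitochondrial, haemoglobin and ribosomal protein genes in the total, with the median of ratios, at most 20% mitochondrial UMIs and at a gate share of 50%. In capillary type cells the 2 also became 1 under each of these and 0 at most 10% mitochondrial UMIs. In macrophages the 9 lower genes became 5 with cells thinned to 1000 UMIs. Against ND endothelial cells, the 1 gene higher in fibroblasts became 0 with the median of ratios and at both mitochondrial limits, and the 3 higher in macrophages became 1 at 20% and 0 at 10%. Against HFD endothelial cells, none higher in macrophages became 1 with the mean of each cell's CPM and with thinning, and the 6 lower became 10 at 10%. The gate of 3 markers and 95% gave 4 genes higher in HFD aortic type cells, and 2 higher in HFD aortic than in capillary type cells, instead of none. At most 10% mitochondrial UMIs, 2 ratios reversed, Egr3 in fibroblasts between the diets to a log2 of 0.13 and Fosb in ND macrophages against endothelial cells to -0.0305. The cause was not tested. Subsets of macrophages, bins of depth and the members under the stricter aortic gate were chosen after seeing the data.

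No paired analysis was possible because each diet has 1 library. For the same reason no library was left out. Differences between diets therefore cannot be told apart from differences between libraries, such as depth, mitochondrial share, haemoglobin and lung club cell RNA. Counting error limits Egr3 and every gate under 50 cells.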

Other observations

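In the HFD library the filter removed 1979 barcodes that passed the endothelial gate with 30 to 50% mitochondrial UMIs, more than the 1140 kept. Their sum of the 10 genes was 13189.7 CPM of nuclear UMIs, close to the 13092 of kept HFD cells at 20 to 25%. Above 50% the sum was 12791 over 1851 HFD barcodes and 11073 over 268 ND barcodes, the only bin in endothelial cells in which HFD was above ND. In macrophages above 50% the sums were 9607 over 144 HFD and 4839.6 over 40 ND barcodes.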
